A study of Mus musculus with 2 samples.

Results

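The 10 genes described here carry the signal of interleukin-6 (IL-6), leptin and related cytokines to the nucleus or switch it off: the receptor genes *Il6ra*, *Il6st*, *Osmr* and *Lepr*, the transcription factor genes *Stat3*, *Stat5a* and *Stat5b*, and the feedback inhibitor genes *Socs1*, *Socs2* and *Socs3*. They were taken by gene symbol, by a rule that uses no measured value, from 52768 genes listed for interscapular brown adipose tissue (iBAT). Of the 10, 9 were among the 12205 genes whose mean over both libraries reached 1 FPKM (fragments per kilobase of exon, scaled to a total for each library). *Lepr* was not. The study asked what the m6A methyltransferase METTL3 does in brown fat. C57BL/6 mice of 2 genotypes were compared at 8 weeks of age, with RNA of 4 mice pooled into 1 library per genotype. Both carried floxed *Mettl3* alleles (flox/flox). The BKO mice also carried 1 copy of *Ucp1*-iCre, a Cre recombinase driven from the *Ucp1* gene, so that cells without *Ucp1* expression keep *Mettl3*. The flox/flox mice had no Cre.

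Cytokines of the IL-6 family bind a receptor of their own, such as the IL-6 receptor alpha chain or the oncostatin M receptor, and signal through the shared chain gp130, the product of *Il6st*. The leptin receptor is built like gp130. JAK kinases on these receptors phosphorylate STAT3, whereas STAT5A and STAT5B are better known downstream of growth hormone and prolactin, and the phosphorylated STAT dimers bind DNA at sites with the core TTCNNNGAA. Among the genes they switch on are the *Socs* genes, whose proteins shut off the receptors and their kinases. These mRNA levels do not show whether a STAT protein was phosphorylated.

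Since each genotype had 1 library, differences could not be set against a spread between replicates, no p-values are given, and each difference describes these 2 libraries. The genes whose fragments could be worked out from FPKM and exon length held 17325128 (flox/flox) and 18444563 (BKO) fragments. Folds were taken from the FPKM values as they stand, and the range in parentheses after each is an exact 95% interval of the fragment ratio, which covers counting error only and neither mice nor library preparation. A log2 ratio was taken after adding 0.1 FPKM to both values and understates the change of genes with low values. Genes were counted as past 2-fold by this log2 ratio. *Mettl3* itself was listed at 1.80 FPKM for flox/flox and 2.38 FPKM for BKO, from 165 and 253 fragments, which goes against the label. A value for the whole gene does not measure the floxed exons apart, and 1561 bases of its annotated span, exons and introns together, overlap *Tox4* on the other strand. For this reason the second library, or sample, is named only as labelled BKO, and every direction below follows that label. Where a pair of values is given, flox/flox stands first. Brown fat markers were present in both libraries, with *Ucp1* at 3164 and 537 FPKM and *Cidea* at 1585 and 1125 FPKM. In bulk tissue, fewer cells of a type and less RNA per cell cannot be told apart.

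Among the 9 members matched by symbol in RefSeq (GRCm38.p6), 1, *Socs3*, held the STAT core TTCNNNGAA within 250 bases before to 50 bases after a start site. This is 11.1% of these genes, beside 9.55% of all genes in the table, and 1 of 12 windows of 300 bases (8.33%), beside 8.3% of all windows, so the members held it about as often as other genes. The core reads the same on both strands. The 250 bases before the RefSeq start of *Socs3* are shown because they hold the match, in capitals, whose first base lies 154 bases before that start. The second sequence, 30 bases around the RefSeq start of *Cish*, the *Socs* relative best known as a STAT5 target, holds the core 2 times. Both starts lie inside the annotated spans of these genes, which begin further upstream.
*Socs3*, chr11:117969367-117969616, minus strand: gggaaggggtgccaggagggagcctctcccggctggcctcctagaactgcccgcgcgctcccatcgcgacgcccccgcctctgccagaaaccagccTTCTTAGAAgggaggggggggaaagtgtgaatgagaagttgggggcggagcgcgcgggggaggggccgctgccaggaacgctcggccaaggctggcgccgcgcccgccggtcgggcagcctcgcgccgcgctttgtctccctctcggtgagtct
*Cish*, chr9:107296654-107296683, plus strand: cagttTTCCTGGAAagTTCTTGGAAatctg
A match is a description of these letters and not a binding site. *Socs2* had no entry in the promoter table.

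The receptor side of the pathway was higher in the library labelled BKO for the IL-6 binding chain and less so for the shared chain. *Il6ra* (ENSMUSG00000027947, chromosome 3, 89864059 to 89913196 on the minus strand, GRCm38), which encodes the chain that binds IL-6, had 2.31 FPKM in flox/flox iBAT and 5.53 FPKM in the BKO-labelled sample, from 349 and 968 fragments. This is a 2.40-fold higher level (2.12 to 2.72), and 8.43% of the genes compared had a larger log2 ratio. *Il6st* (ENSMUSG00000021756, chromosome 13, 112464070 to 112510086 on the plus strand) was at 14.8 and 20.2 FPKM, from 2870 and 4543 fragments, a 1.37-fold difference (1.30 to 1.43). *Osmr* (ENSMUSG00000022146, chromosome 15, 6813577 to 6874969 on the minus strand), the chain that pairs with gp130 to bind oncostatin M, was at 1.85 and 2.19 FPKM, 1.18-fold higher (1.04 to 1.35).

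*Lepr*, the leptin receptor gene (ENSMUSG00000057722, chromosome 4, 101717404 to 101815352 on the plus strand), was close to the detection limit in both libraries. It was listed at 0.0730 FPKM for flox/flox and 0.182 FPKM for the BKO-labelled sample, from 9 and 26 fragments. The ratio was 2.49 (1.13 to 6.05), an interval too wide to place it on either side of 2-fold. The value is for all *Lepr* transcripts, and the long, signalling form was not measured apart.

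The STAT genes themselves differed little. *Stat3* (ENSMUSG00000004040, chromosome 11, 100885098 to 100939540 on the minus strand) had 10.9 FPKM in flox/flox iBAT and 11.5 FPKM in the BKO-labelled sample, from 1820 and 2225 fragments, a ratio of 1.06 (0.992 to 1.12). *Stat5a* (ENSMUSG00000004043, chromosome 11, 100859351 to 100885169 on the plus strand) was at 12.01 and 11.71 FPKM, a ratio of 0.975 (0.909 to 1.05), and the sign of its log2 ratio was positive under 2 of 5 other scalings of the libraries. For both genes the interval included a ratio of 1. *Stat5b* (ENSMUSG00000020919, chromosome 11, 100780731 to 100850724 on the minus strand) was at 14.4 and 12.7 FPKM, 1.13-fold lower (1.05 to 1.22), with a positive log2 ratio, 0.15, once both libraries were rescaled to the same sum of values (TPM). These 3 genes are neighbours, and the annotated ends of *Stat3* and *Stat5a*, which lie on opposite strands, share 72 bases. Whether reads were counted by strand is not given in the sources used here, so reads from those bases cannot be told apart if they were not. The annotated span of *Il6ra*, exons and introns together, shares 281 bases with the antisense gene *Gm42809*, which was at 0.05 and 0.04 FPKM.

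Of the feedback inhibitors, *Socs3* stood well above the others in its difference. *Socs3* (ENSMUSG00000053113, chromosome 11, 117966079 to 117970047 on the minus strand), whose protein binds gp130 and the leptin receptor and blocks their JAK kinases, had 2.08 FPKM in flox/flox iBAT and 10.2 FPKM in the BKO-labelled sample. These values rest on 105 and 596 fragments and give a 4.90-fold higher value (3.98 to 6.09), with 3.45% of the genes compared at a larger log2 ratio. *Socs2* (ENSMUSG00000020027, chromosome 10, 95385362 to 95417180 on the minus strand), a brake on growth hormone signalling, was at 0.828 and 1.52 FPKM, 1.84-fold higher (1.498 to 2.269), from 138 and 294 fragments. Its interval spans 2-fold, and its log2 ratio passed 1 under TPM, at 1.12.

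*Socs1* (ENSMUSG00000038037, chromosome 16, 10782240 to 10785536 on the minus strand), which restrains interferon signalling, had 1.03 FPKM in flox/flox iBAT and 1.30 FPKM in the BKO-labelled sample, a ratio of 1.26. The exon length of 2908 bases annotated for it did not give whole fragments. Lengths from 1830 to 4270 bases that did give between 33 and 77 fragments for flox/flox and between 48 and 112 for the BKO-labelled sample. At 2440 bases, or 44 and 64 fragments, the interval is 0.843 to 1.89, so that a difference was not detectable at that depth.

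**Figure D1:**
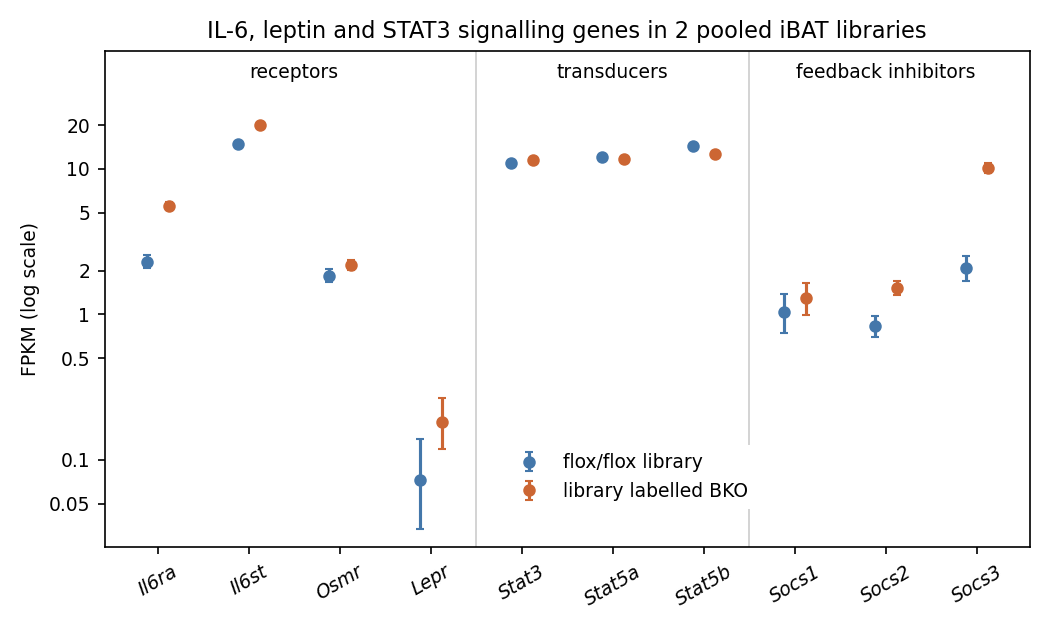
FPKM on a log axis of the 10 genes in the flox/flox library (blue) and the library labelled BKO (orange), 1 pooled library each, with bars for exact Poisson 95% intervals of the fragments (for *Socs1* at an exon length of 2440 bases). *Socs3*, at 2.08 and 10.2 FPKM, lies beside *Il6ra* and *Osmr* in one library and near *Stat3* in the other, whereas the 3 STAT genes lay between 10.9 and 14.4 FPKM in both libraries.

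In number, 2 of the 9 members compared (22.2%) were past 2-fold on the higher side, *Socs3* and *Il6ra*, beside 11.0% of all 12205 genes and 11.3% of the 10652 protein-coding ones. None was past 2-fold on the lower side, beside 5.91% of all genes and 3.23% of the protein-coding ones. The other 7 lay within 2-fold. The median log2 ratio of the 9 genes was 0.30 and that of all genes compared 0.02. With so few members, these shares describe the genes and do not set them apart from the rest. *Socs3* and *Il6ra* stayed past 2-fold under each of the 5 other scalings. TPM moved the median of all genes by 0.33 on the log2 scale and scaling to the total of fragments in genes of each library, estimated at the annotated length where they were undetermined (own totals), by 0.11, and the share of higher genes among all those past 2-fold was 65.03% as deposited, 83.7% under TPM and 72.4% under own totals. With 1 FPKM in place of 0.1 added to both values, *Il6ra* had a log2 ratio of 0.98, just under 2-fold.

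**Figure D2:**
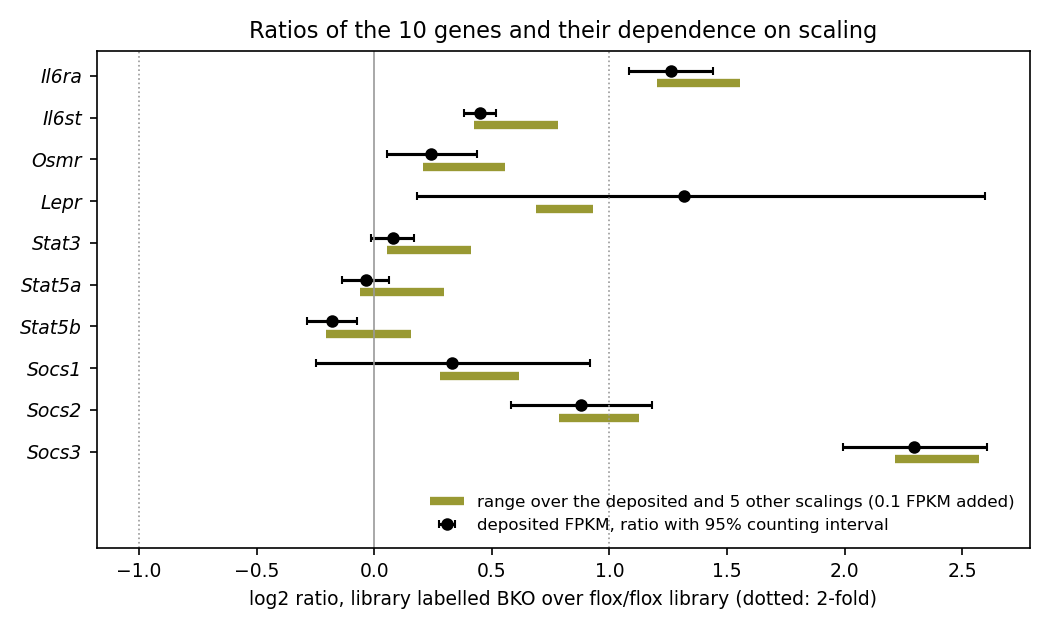
Log2 ratio of each gene, library labelled BKO over flox/flox library, with the 95% counting interval (black, no pseudocount) and the range over the deposited and 5 other scalings with 0.1 FPKM added (olive). Among the 9 genes compared, only *Il6ra* and *Socs3* have an interval and a scaling range wholly above 2-fold, and *Stat5a* and *Stat5b* have scaling ranges on both sides of 0.

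On the FPKM scale, which corrects for length, the genes fell into an abundant group and a scarce group in the flox/flox library. *Il6st* at 14.8 FPKM and *Stat5b* at 14.4 FPKM led and had overlapping intervals, followed by *Stat5a* and *Stat3*, which also overlapped. *Il6ra*, *Socs3* and *Osmr* came next, each overlapping its neighbour in the order, then *Socs1* and *Socs2*, and *Lepr* last. In the library labelled BKO, *Il6st* stood apart at the top at 20.2 FPKM, the 3 STAT genes followed with each overlapping its neighbour, and *Socs3* came next at 10.2 FPKM, apart from *Stat3* above it and *Il6ra* below it. *Osmr* followed, then *Socs2* and *Socs1* with overlapping intervals, and *Lepr* was again the lowest.

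Ratios of 2 genes within a library do not depend on how the libraries were scaled. *Socs3* was at 0.190 times the FPKM of *Stat3* in the flox/flox library and at 0.883 times in the library labelled BKO, a 4.64-fold change (exact conditional interval 3.73 to 5.82). The ratio of *Il6ra* to *Il6st*, the IL-6 binding chain to the chain that signals, was 0.156 and 0.274, a 1.75-fold change (1.53 to 2.003). *Osmr* to *Il6st* was at 0.125 and 0.108, a change of 0.866 (0.752 to 0.997) in the other direction. *Socs2* to *Stat5b* was at 0.0577 and 0.120, a 2.08-fold change (1.67 to 2.60), and *Stat5a* to *Stat5b* at 0.836 and 0.923, a change of 1.10 (0.996 to 1.22). The level of *Socs3* thus came close to that of *Stat3* in the library labelled BKO, and the interval of the change between the STAT5 genes included 1.

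Few ligands of these receptors were expressed at a level that could be compared. Only 2 of 17 listed ligand genes reached a mean of 1 FPKM. *Lep*, the leptin gene of adipocytes, had 1.76 FPKM in flox/flox iBAT and 17.4 FPKM in the BKO-labelled sample, 9.88-fold higher (8.07 to 12.2). Leptin protein was not measured in these files. *Ctf1*, which encodes the IL-6 family cytokine cardiotrophin, was at 5.17 and 2.63 FPKM, 1.97-fold lower (1.52 to 2.56). The cytokine genes *Il6*, *Osm* and *Lif* were near the floor of detection in both. *Il6* rested on 1 and 14 fragments, a ratio of 12.1 (1.84 to 511). *Osm* rested on 1 and 11 fragments, a ratio of 9.50 (1.38 to 409). *Lif* rested on 0 and 24 fragments, which with the control set to a floor of 3 fragments is at least 6.91-fold higher. *Il31*, *Il22*, *Gh* and *Prl* were listed at 0 in both libraries.

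Receptors that share gp130 or the STAT proteins went both ways. Of 11 listed, 7 were compared, with 2 at least 2-fold higher, 1 at least 2-fold lower and a median log2 ratio of 0.69, beside 11.0% and 5.91% of all genes. *Cntfr*, the binding chain for ciliary neurotrophic factor, was the exception on the low side, with 25.8 FPKM in flox/flox iBAT and 5.86 FPKM in the BKO-labelled sample, 4.40-fold lower (3.90 to 4.99). Of the genes compared, 99.04% had a higher log2 ratio. *Il10ra*, a receptor chain for interleukin-10 found on leukocytes, was 4.73-fold higher (3.33 to 6.87) and *Csf3r*, the receptor gene for the neutrophil growth factor and also a listed neutrophil marker, 2.18-fold higher (1.59 to 3.02). Both were below 1 FPKM in flox/flox iBAT, at 0.621 and 0.904 FPKM, and were compared only because of the library labelled BKO. *Prlr*, the prolactin receptor gene, was below the level at which genes were compared, with 19 and 235 fragments, a ratio of 10.7 (6.69 to 18.1). *Ghr*, the growth hormone receptor and the most abundant of the list by mean, was at 20.7 and 37.6 FPKM, 1.82-fold higher (1.74 to 1.90).

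The kinases stayed within 2-fold, as did *Stat2* and *Stat6*. *Jak1*, the main kinase partner of gp130, was at 14.1 and 15.7 FPKM, 1.11-fold higher (1.05 to 1.19), and *Jak2*, the kinase of the leptin and growth hormone receptors, was 1.25-fold higher (1.11 to 1.41). *Jak3*, known best from lymphocytes, had 22.9 FPKM in flox/flox iBAT and 14.5 FPKM in the BKO-labelled sample, 1.58-fold lower (1.48 to 1.69). T and NK cell markers were low in both libraries, with a summed level of 3.22 and 3.21 FPKM over 8 genes, none of them at 0 and the highest by mean, *Trbc2*, at 1.32 and 0.714 FPKM. Their part in the value of *Jak3* was not tested. *Tyk2* had a ratio of 0.9502 (0.845 to 1.07). Among other STAT genes, *Stat2* had a ratio of 1.08 (0.960 to 1.21) and *Stat6*, the transducer of interleukin-4, one of 1.02 (0.946 to 1.10). *Stat4* had 2 and 3 fragments.

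Other regulators of the pathway had smaller ratios than *Socs3*. All 15 listed genes were compared, of which 2 were at least 2-fold higher and none lower, with a median log2 ratio of 0.25, so that the share on the higher side was near the 11.0% of all genes. *Socs6* had 2.16 FPKM in flox/flox iBAT and 6.52 FPKM in the BKO-labelled sample, a ratio of 3.03 for which the fragments could not be determined. *Ptpn6*, the phosphatase SHP-1 of blood cells, was 2.57-fold higher (2.0 to 3.33). *Cish* was at 3.02 and 4.90 FPKM, 1.62-fold higher (1.42 to 1.85). *Ptpn11*, the phosphatase SHP-2 that binds gp130, was the most abundant by mean, at 27.7 and 30.5 FPKM.

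Of 25 genes listed as known STAT3 targets, 24 were compared, with 10 at least 2-fold higher, 1 at least 2-fold lower and a median log2 ratio of 0.70, beside 11.0% and 5.91% of all genes. The list was chosen with earlier results of these data known, so these shares describe its genes and do not set them apart from the rest. The 10 at least 2-fold higher were *Hp*, *Lrg1*, *Serpina3n*, *Timp1*, *Saa3*, *Lcn2* and *Ccl2*, which encode secreted proteins, together with the adhesion molecule gene *Icam1*, the receptor gene *Il4ra* and the transcription factor gene *Cebpd*. Of these, *Saa3*, *Timp1*, *Ccl2* and *Lcn2* were below 1 FPKM in flox/flox and were compared only because of the library labelled BKO. *Saa3*, a serum amyloid, was at 0.285 and 11.5 FPKM, 40.5-fold higher (23.5 to 76.4). *Serpina3n*, a protease inhibitor, was at 3.74 and 67.0 FPKM, 17.9-fold higher (15.1 to 21.4), and *Timp1*, an inhibitor of matrix proteases, 12.9-fold higher (7.36 to 24.6). *Ccl2*, a monocyte chemokine, was 12.6-fold higher (7.48 to 22.9), and *Lcn2*, the iron-withholding lipocalin, 4.57-fold higher (3.31 to 6.43). *Hp*, haptoglobin, was the most abundant, at 518 and 1955 FPKM. In contrast *Pim1*, a kinase gene induced by both STAT3 and STAT5, had 81.1 FPKM in flox/flox iBAT and 26.6 FPKM in the BKO-labelled sample, 3.05-fold lower. By sign, 16 of the 24 had a log2 ratio above 0 and 8 one below 0. Among the 8 was also *Vegfa*, at 177 and 89.7 FPKM, 1.98-fold lower (1.92 to 2.03). The genes of this list answer to other signals as well, so the list does not measure STAT3.

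The STAT5 list was small and mixed, with 8 of 10 genes compared and a median log2 ratio of 0.46. Past 2-fold were 1 gene on the higher side and 1 on the lower (*Pim1* again), beside 11.0% and 5.91% of all genes. *Igf1*, the growth factor gene, at 2.11 and 4.30 FPKM, was 2.03-fold higher (1.80 to 2.30) but had a log2 ratio of 0.99 after adding 0.1 FPKM and was not counted. *Igfals*, which encodes a carrier subunit for insulin-like growth factors, was at 4.42 and 17.9 FPKM, a ratio of 4.04 without determined fragments, and 3 of the 8 genes with a RefSeq promoter, *Bcl6*, *Cish* and *Igfals*, held the TTCNNNGAA core, against 9.55% of all genes in that table. Of the STAT3 targets, 2 of 20 genes (10%) held it. The list was made from genes known to be bound by STAT5, so such matches are no independent result.

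**Figure D3:**
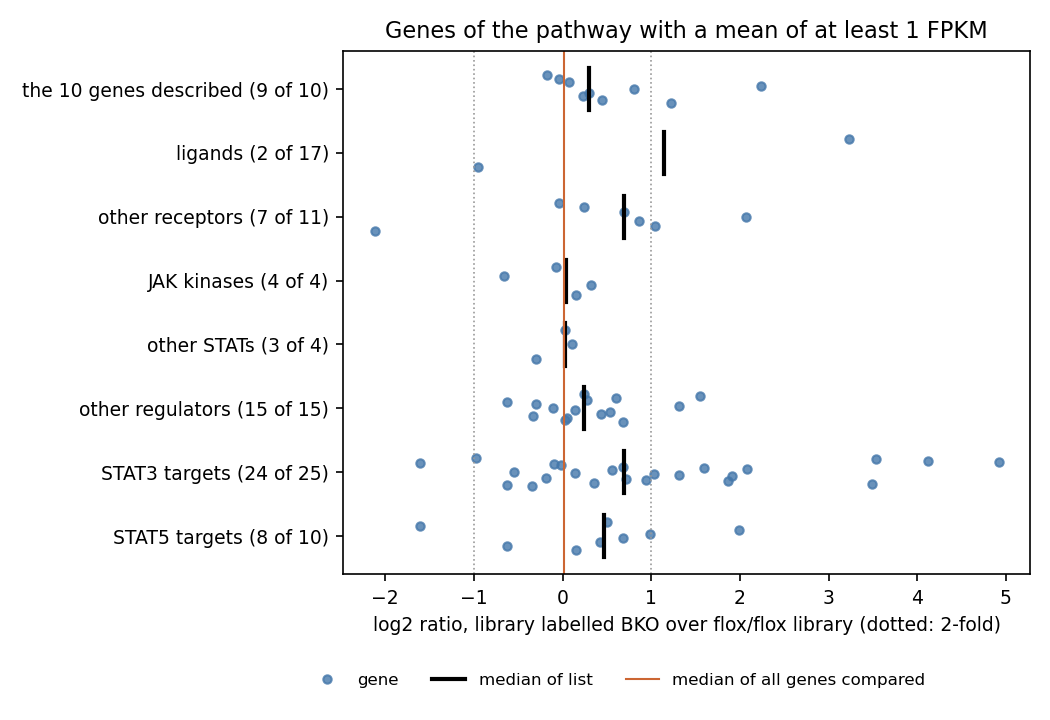
Log2 ratios, library labelled BKO over flox/flox library, of the genes compared in each list (points), the median of each list (black bar) and the median of all 12205 genes compared, 0.02 (orange line), with the number compared and the number listed beside each name. The JAK genes reach from -0.66 (*Jak3*) to 0.32 and the other STAT genes lie within 2-fold, whereas the STAT3 targets reach from -1.61 to 4.92.

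Markers of cell types other than adipocytes also differed between the libraries. Of 12 macrophage markers, 11 were compared and all 11 were higher by 2-fold or more, with log2 ratios from 1.72 to 2.66 and a summed level of 73.8 and 374 FPKM, and none of the 12 was at 0. Of the 11, *Itgam* and *Fcgr1* were below 1 FPKM in flox/flox and were compared only because of the library labelled BKO. *Lyz2*, which encodes a myeloid lysozyme, had 41.0 and 237 FPKM. The 4 neutrophil markers compared, of 8, were at least 2-fold higher, with sums of 9.18 and 29.4 FPKM over all 8, led by *S100a9* at 5.48 and 12.7 FPKM. Of these 4, *Csf3r* and *Retnlg* were below 1 FPKM in flox/flox and were likewise compared only because of the library labelled BKO. Among those not compared, *Cxcr2* rested on 11 and 15 fragments, a ratio of 1.18 (0.505 to 2.83). *Ngp* rested on 0 and 15 fragments and *Camp* on 0 and 4. The defining neutrophil marker *Ly6g* was listed at 0 in both libraries. Fibroblast and progenitor markers, summing to 178 and 540 FPKM, were at least 2-fold higher for 6 of 8, with *Col3a1* at 48.3 and 214 FPKM, and all 11 skeletal muscle markers compared, of 12, were also at least 2-fold higher, summing to 44.4 and 2898 FPKM, with the skeletal actin gene *Acta1* at 16.5 and 1389 FPKM. Some markers of both lists were also below 1 FPKM in flox/flox and were compared only because of the library labelled BKO. *Tnnc2* of the skeletal muscle list was listed at 0 in both. A listed value of 0, here or for *Ly6g*, does not by itself show that a gene was not expressed. Endothelial markers were lower, with 5 of 8 at least 2-fold lower and sums of 269 and 102 FPKM, led by *Cdh5*, the endothelial cadherin gene, at 71.9 and 26.1 FPKM. General adipocyte markers stayed within 2-fold for 6 of 6, with the fatty acid carrier gene *Fabp4* at 1633 and 1829 FPKM. Of 8 brown adipocyte markers, 7 had a negative log2 ratio, 3 of them past 2-fold. The 8 summed to 5783 and 2363 FPKM, with a median log2 ratio of -0.81 and *Ucp1* at 3164 and 537 FPKM. *Elovl3* went the other way, past 2-fold on the higher side. Among all genes compared, 11.0% were past 2-fold on the higher side and 5.91% on the lower.

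Set beside these lists, the log2 ratio of *Socs3*, 2.24, lay within the ranges of the macrophage, neutrophil and fibroblast markers. That of *Il6ra*, 1.22, lay below all macrophage markers compared, above 3 of the 8 fibroblast markers and within the range of the neutrophil markers. *Il6st* at 0.45 lay within the range of the general adipocyte markers, -0.50 to 0.79. The part of each cell type in the values of *Socs3*, *Il6ra*, *Il10ra*, *Csf3r*, *Ptpn6* and the acute-phase genes was not tested.

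**Figure D4:**
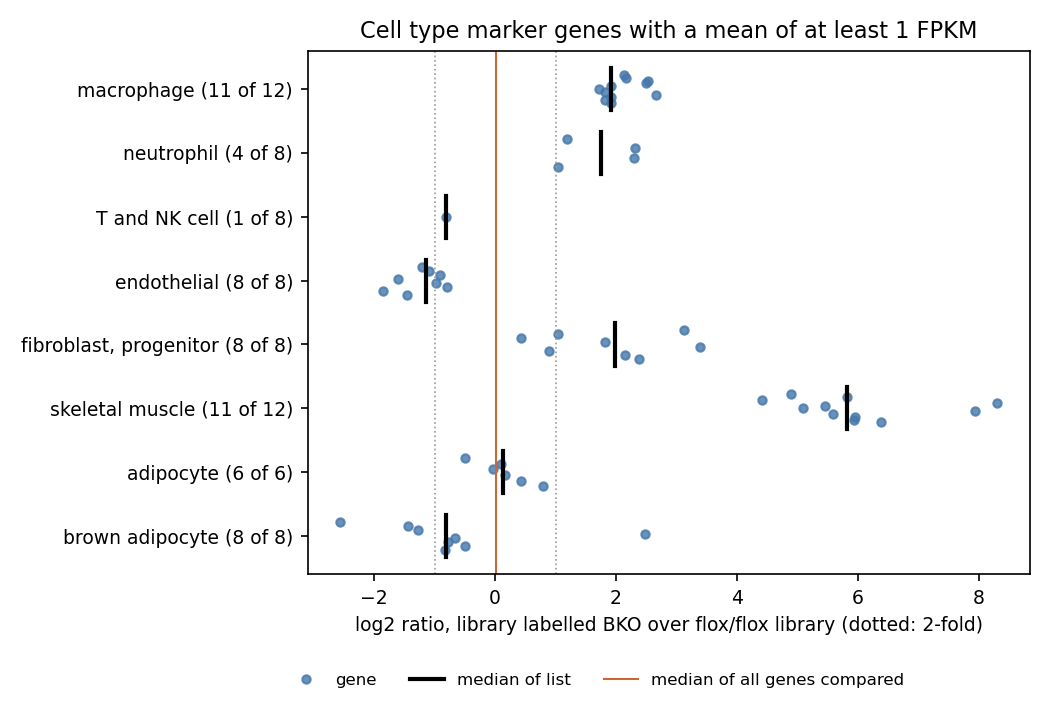
Log2 ratios, library labelled BKO over flox/flox library, of the marker genes compared for 8 cell types (points), the median of each list (black bar) and the median of all genes compared, 0.02 (orange line). All macrophage points lie between 1.72 and 2.66, the skeletal muscle points lie above 4.41 and all endothelial points lie below 0.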

How the data were processed

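The authors made paired-end RNA-seq libraries from pooled iBAT RNA of 4 mice per genotype and deposited a table of FPKM values for each library. The submitters' processing notes name TopHat2 and HTSeq 0.6.1, and whether counting used strand is not given in the sources used here. The tables hold no count or error. Gene IDs were matched to GENCODE M21 (GRCm38), with 52489 of 52768 found.

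Each FPKM value times exon length gave whole fragments, within a tolerance of 0.001 fragments, for 22405 of the 24856 genes above 0 at the annotated length and for 1001 at another length. The other 1450 were left undetermined. The FPKM values imply scaling totals of 17480546 (flox/flox) and 20240633 (BKO), beside an estimated 18933004 and 20224258 fragments in genes. Intervals are exact 95% intervals (Clopper-Pearson for ratios, Poisson for levels, conditional for ratios of ratios) and cover counting error only. Ratios used a pseudocount of 0.1 FPKM, and genes whose mean reached 1 FPKM were compared, without any test, since each group had 1 pooled library. The steps were tested on simulated data with counting error only and with exon lengths taken as known. That test covers neither wrong lengths nor variation between mice or library preparations. Python 3.11.15, numpy 2.4.6, scipy 1.17.1, pandas 2.3.3 and matplotlib 3.10.9 were used.

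The rule for the members uses no measured value, but the members and lists were chosen with earlier results of these data known. Text was to name all members, all kinases and STAT genes, per list the most abundant gene and up to 5 with the largest ratio past 2-fold, and per cell type the most abundant marker. *Il6*, *Osm*, *Lif*, *Prlr*, *Cish*, *Bcl6*, *Igf1*, *Lrg1*, *Icam1*, *Il4ra*, *Cebpd*, *Vegfa*, *Itgam*, *Fcgr1*, *Retnlg*, *Cxcr2*, *Ngp*, *Camp*, *Cidea*, *Elovl3* and genes listed at 0 were added after their values were seen. Promoter sequences are from RefSeq (GRCm38.p6). A result for 1 gene covered by this rule is not reported here. A planned search of the receptor proteins for a tyrosine motif was not run. Alternatives were 2 pseudocounts, 2 filters, 5 scalings and protein-coding genes alone.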

Additional observations from a re-analysis of the deposited data

How the results depend on the processing

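Of the 10 alternatives, only the 5 scalings can turn the sign of a ratio. Under these 5, the log2 ratios of *Socs3* and *Il6ra*, the 2 members past 2-fold, stayed positive. Against 2 members at least 2-fold higher, the count was 1 with a pseudocount of 1 FPKM and 1 with a filter of 5 FPKM, and the median of 0.30 became 0.078 with that filter and 0.62 under TPM. With a pseudocount of 1 FPKM, 1 of the other receptors and 1 of the other regulators were at least 2-fold higher (2 each before). With a filter of 5 FPKM these were 0 and 0, and STAT3 targets 6 instead of 10. Under TPM, 4 other receptors and 3 STAT5 targets (2 and 1 before) were at least 2-fold higher. Of all 12205 genes compared, 2100 were at least 2-fold higher under TPM, against 1341 as deposited. The STAT5 targets numbered 2 with a pseudocount of 0.01 FPKM, no filter, own totals or mitochondrial genes left out. Without a filter 9 ligands (1 before) were higher, and all but *Lep* rested on at most 6 fragments in flox/flox. The share of all genes without a filter was not worked out. With median centring or a trimmed mean, 2 STAT3 targets (1 before) were at least 2-fold lower. The ratio of *Stat5a* was above 0 under TPM and own totals and that of *Stat5b* under TPM. Depth limits *Lepr*, *Socs1* and the cytokine genes, whose intervals are wide. Variation between mice was not measured. No paired analysis was possible because each group had 1 library.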

Other observations

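A common core of the sites where METTL3 writes m6A is GGACT, and only this core was counted. The longest protein-coding transcript of each of the 10 genes held the core at least 1 time, as did 92.4% of 10650 transcripts of the genes compared, whose median was 1.05 per kilobase. The *Il6ra* transcript held 15 in 8639 bases, 1.74 per kilobase, and 18.4% of those transcripts had more per kilobase. The *Socs3* transcript held 3, or 1.18 per kilobase, close to the median, and the *Stat3* transcript 3, or 0.497 per kilobase. No methylation was measured in these files, and the core alone does not show a methylated site.

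The genes nearest to *Socs3* in their pair of levels, as the distance between log2 values over 2 libraries among 6169 protein-coding genes whose mean reached 5 FPKM, were *Col20a1* at 2.09 and 10.2 FPKM, *Anxa8* at 2.13 and 10.5 FPKM and *Mrc1* at 2.17 and 10.1 FPKM. *Mrc1*, the macrophage mannose receptor, is also on the macrophage list. The genes nearest to *Stat3* were *Faap20*, *Josd2* and *Hacl1*. With 2 libraries such likeness is a description of levels only.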
